A study of Homo sapiens with 18 samples.

Results

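The 48 genes described here encode the proteins that build the mitotic spindle, join chromosomes to it at the kinetochore, check that every chromosome is joined, and divide the cell by cytokinesis. They were listed by symbol, and the rule uses no measured value, though earlier results of these data were known when the list was drawn up. Each of the 48 symbols matched 1 row of a table of 60504 Ensembl identifiers, and all 48 are protein-coding. All 48 passed the filter on low values (at least 1 TPM in at least 3 of 18 libraries), and 14936 genes passed in all. The cells were A375, an established human melanoma line, treated with IMD-0354, a compound known for blocking IKKβ, a kinase that switches on NF-κB signalling. RNA was read from its 3' end in 6 groups of 3 libraries: untreated cells at 24 h, cells given 0.32, 0.63 or 1.25 µM IMD-0354 for 24 h, untreated cells at 48 h, and cells given 0.63 µM for 48 h. No vehicle is named for untreated cells, and every group is the same single cell line. Whether the libraries within a group stem from different cultures is not said, so each p-value reflects the spread among these libraries alone, and that spread may be technical.

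Kinetochores are protein assemblies on centromeric chromatin that bind spindle microtubules. Where a kinetochore is not bound, the checkpoint proteins keep the anaphase promoting complex (APC/C), a ubiquitin ligase, from releasing sister chromatids. Cells make most of these proteins only as they approach division: in resting cells the DREAM complex represses their genes, and in cycling cells B-MYB (MYBL2) with the MuvB core, and then FOXM1, activate them. Dividing cell lines, melanoma lines among them, hold high levels of these transcripts.

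Values are TPM, transcript levels that are scaled to a fixed total and divided by transcript length. The depth of each library is therefore unknown, and levels of different genes are set side by side only on that scale per length. In untreated cells at 24 h the mean level ran from 3.81 ± 1.82 TPM for FOXM1 to 514 ± 11.8 TPM for PTTG1 (SD, n = 3). A change is the difference between group means of log2(TPM + 1), given with its standard error (SE) from 1 limma model of all 18 libraries, and it understates the change of genes with low values. A gene was called where its Benjamini-Hochberg adjusted p, over the 14936 genes, was under 0.05.

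The 48 transcripts together made up 4221 ± 563 TPM in untreated cells at 24 h (SD, n = 3). The sum was 3905 ± 32.6 TPM at 0.32 µM, 3172 ± 471 TPM at 0.63 µM and 1749 ± 377 TPM at 1.25 µM. At 48 h it was 4039 ± 76.9 TPM untreated and 1626 ± 101 TPM at 0.63 µM. All 3 libraries at 1.25 µM, at 1977, 1957 and 1314 TPM, and all 3 at 0.63 µM for 48 h, at 1633, 1724 and 1522 TPM, lay below each of the other 12 libraries. In a bulk culture fewer dividing cells and less RNA per dividing cell cannot be told apart. Some libraries stood apart within their groups. Untreated 24 h library 2 held the highest level of its group for 31 of the 48 genes and a sum of 4871 TPM, against 3905 and 3888 TPM in the other two. Library 3 at 1.25 µM held the lowest level of its group for 40 of the 48, and library 3 at 0.63 µM for 24 h for 34. Untreated 24 h libraries 2 and 3 had the lowest mean correlation with their own group over all genes tested (0.9066 and 0.9195), and the calls at 1.25 µM for 24 h that are lost without either of them are named with that comparison.

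**Figure D1:**
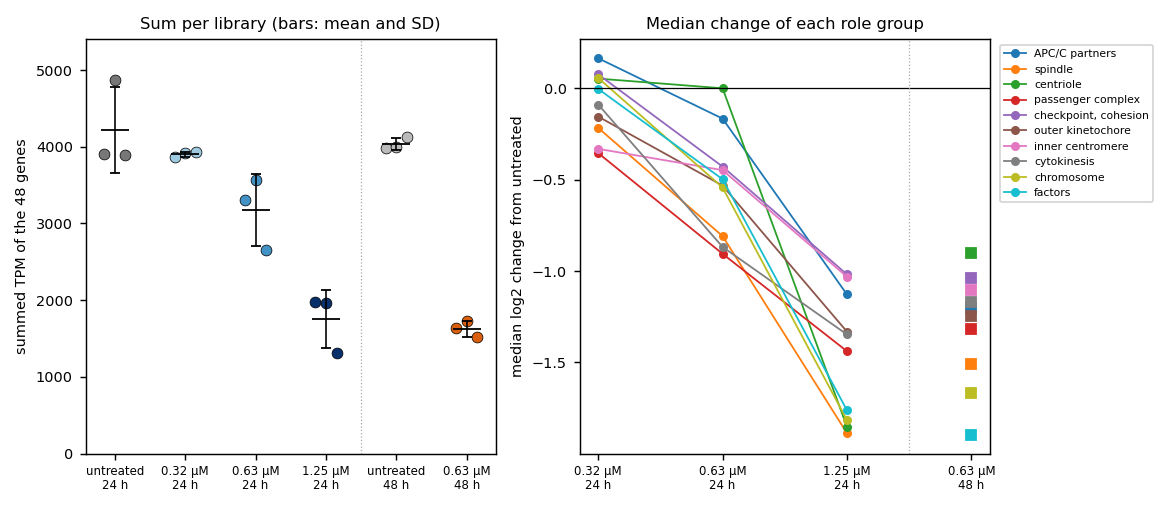
Left, summed TPM of the 48 genes in each library (points) with the mean and SD of 3 libraries (bars). Right, median log2 change from untreated cells of the same time for each of 10 role groups, with lines over the doses at 24 h and squares for 0.63 µM at 48 h. The sums at 1.25 µM for 24 h (1314 to 1977 TPM) and at 0.63 µM for 48 h (1522 to 1724 TPM) lie below those of every other group, and every role group has its lowest 24 h median at 1.25 µM.

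The labelled cell type was checked on marker genes. Of 8 melanocyte and melanoma markers, SOX10 (8.3 to 34.7 TPM over the libraries) and MITF (2.9 to 16.8 TPM) had a mean of at least 1 TPM, TYR was at 0 in every library, and the other 5 markers had means over all libraries under 1 TPM. MITF stood at 15.6 ± 1.84 TPM untreated and 8.44 ± 5.18 TPM at 1.25 µM for 24 h, and at 15.9 ± 0.792 TPM untreated and 4.07 ± 1.07 TPM at 0.63 µM for 48 h (SD, n = 3), and the sum of the 8 markers reached at most 56.3 TPM. The summed markers of fibroblasts reached at most 0.75 TPM, those of endothelium 0.2 TPM and those of leukocytes 5.54 TPM. Of the 4 leukocyte markers PTPRC and CD3E were at 0 in every library, and CD68, a lysosomal protein gene, had a mean of at least 1 TPM. CD68 stood at 0.93, 0 and 3.19 TPM untreated and 2.61, 3.72 and 3.35 TPM at 1.25 µM for 24 h, with overlap, and at 1.62, 0 and 0.12 TPM untreated and 2.98, 4.24 and 5.54 TPM at 0.63 µM for 48 h, where every treated library lay above every untreated one. Of 4 keratinocyte markers KRT10 had a mean of at least 1 TPM. It stood at 42.6 ± 3.03 TPM untreated and 86.7 ± 15 TPM at 1.25 µM for 24 h, and at 31.2 ± 3.68 TPM untreated and 40.1 ± 1.93 TPM at 0.63 µM for 48 h (SD, n = 3). The part of MITF, CD68 and KRT10 in the results was not tested.

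At 0.32 µM for 24 h limma called none of the 48 genes lower and none higher, beside 0.0201% of all genes tested called lower and 0.0067% called higher. At an unadjusted p under 0.05 there were 912 of the 14936 genes tested. Among the 48 there was 1, CENPN, whose protein reads the centromeric histone CENP-A. It stood at 42.3, 34.7 and 48.7 TPM in untreated cells and at 21.1, 34.1 and 30.3 TPM at 0.32 µM, so the groups did not overlap, and its change was -0.56 (SE 0.25, adjusted p = 0.789). In 3 genes (NUSAP1, NDC80 and CENPN) every treated library lay below every untreated one, beside 4.59% of all genes tested. The median change of the 48 genes was -0.10, with 31 of 48 changes negative, and the median of all genes tested was 0.00.

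At 0.63 µM for 24 h, 5 of the 48 genes fell and none rose, beside 0.824% of all genes tested called lower and 1.36% called higher. By role they were 2 of 7 spindle genes, 2 of 5 cytokinesis genes and 1 of 4 passenger complex genes. PRC1, which bundles the antiparallel microtubules of the central spindle, stood at 347, 468 and 358 TPM untreated and at 208, 280.3 and 163 TPM at 0.63 µM. The groups did not overlap, and PRC1 fell by 0.87 (SE 0.18, adjusted p = 0.0249). ECT2, the exchange factor that activates RhoA at the cleavage furrow, stood at 45.5, 76.7 and 29 TPM untreated and at 19.6, 23.8 and 19.1 TPM treated, again without overlap, and fell by 1.13 (SE 0.29, adjusted p = 0.0498). BIRC5, which encodes the passenger complex subunit survivin, went from 105, 183 and 129 TPM to 77.1, 73 and 24.6 TPM. It fell by 1.37 (SE 0.32, adjusted p = 0.0389), and 1 library, number 3 of the treated group, was far below the other two. NUSAP1, a microtubule stabiliser at the spindle, stood at 109, 166 and 111 TPM untreated and 70.4, 73 and 66.8 TPM treated and fell by 0.84 (SE 0.19, adjusted p = 0.0371). ASPM, which focuses microtubules at spindle poles, stood at 35, 66.9 and 37.9 TPM untreated and 23.5, 22.8 and 20.4 TPM treated and fell by 0.98 (SE 0.24, adjusted p = 0.0484). In these last 2 genes as well each treated library lay below each untreated one.

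Across all 48 genes the median change at 0.63 µM was -0.56 (all genes tested, 0.00), and 41 changes were negative. An unadjusted p under 0.05 was found for 20 of the 48 and for 2672 of the 14936 genes tested. Every treated library lay below every untreated one for 19 of the 48, beside 9.26% of all genes tested. None of the 5 calls was kept in every fit that left out 1 library. Limma called 0 of the 48 in a fit of the compared groups alone, 0 without untreated library 2, 0 without treated library 3, 1 without treated library 1, 2 without treated library 2 and 4 without untreated library 1. Without untreated library 3 it called 6, the 5 and CDCA8. The fit of the compared groups alone called 0 of all genes tested as well. The step from 0.32 to 0.63 µM had no call among the 48, beside 0.556% of all genes tested called in either direction. Its median was -0.40, with 40 negative changes. In that step 14 of the 48 had an unadjusted p under 0.05, beside 2082 of the 14936 genes tested. ECT2 had the most negative value of that step, -1.20 (SE 0.29, adjusted p = 0.0753).

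At 1.25 µM for 24 h, 39 of the 48 genes fell and none rose, beside 6.36% of all genes tested called lower and 4.94% called higher. Of the 39, 36 fell by at least 1 on the log2 scale, which is 2-fold, and 8 by at least 2, which is 4-fold. The median change was -1.44, against -0.01 over all genes tested, and every treated library lay below every untreated one for 40 of the 48, beside 13.7% of all genes tested. The changes were spread over all 10 role groups, from centriole assembly to the transcription factors. The count was 25 of 48 without treated library 3, 16 without untreated libraries 2 and 3, and 4 (NUSAP1, CEP152, PRC1 and TOP2A) when the fit held the compared groups alone. Over all genes tested, the lower calls went from 950 to 509 without treated library 3 and to 83 with the compared groups alone. Without untreated library 2 alone the count among the 48 was 32. The 8 calls lost were BIRC5, SGO2, SKA3, KNL1, CENPK, ECT2, RACGAP1 and CEP55, with changes there from -1.24 (RACGAP1) to -0.61 (ECT2) and adjusted p from 0.0613 to 0.192, and CENPM was gained. Without untreated library 3 alone the count was 34, and the 5 calls lost were AURKB, CDC20, ZWINT, CENPK and RACGAP1, with changes from -1.28 (RACGAP1) to -0.66 (AURKB) and adjusted p from 0.0528 to 0.0831. Whichever single library was left out, 24 of the 39 were called. The calls outside these 24 were the 11 just named together with BUB1B, TTK, CENPA and FOXM1.

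**Figure D2:**
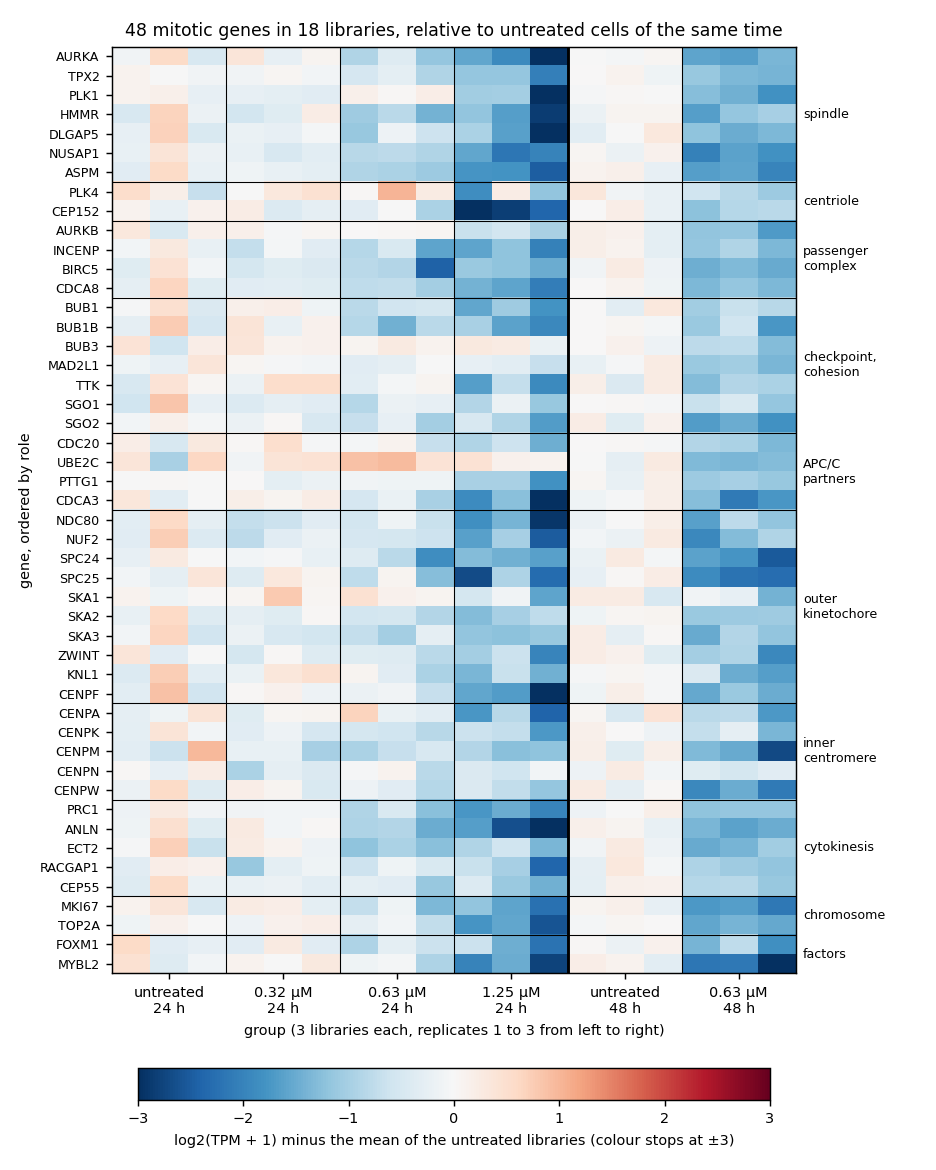
Colour gives log2(TPM + 1) of each of the 48 genes in each of 18 libraries minus the mean of the 3 untreated libraries of the same time, with genes in rows ordered by role and libraries in columns by group. The 1.25 µM 24 h and 0.63 µM 48 h columns are blue for nearly every gene, UBE2C and BUB3 are not blue at 1.25 µM, and untreated 24 h library 2 is redder than its group for many genes.

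Spindle pole and spindle assembly genes fell in 7 of 7 cases at 1.25 µM. AURKA, the kinase of centrosome maturation, stood at 103, 168 and 80.1 TPM in untreated cells and at 37.3, 29.1 and 10.5 TPM at 1.25 µM. Its highest treated library was below its lowest untreated one, and it fell by 2.25 (SE 0.36, adjusted p = 0.000874), the most negative change of the group. TPX2, which activates AURKA on the spindle, had the least negative change: from 83.5, 77.1 and 72.1 TPM untreated it went to 34.2, 33.9 and 18 TPM and fell by 1.46 (SE 0.22, adjusted p = 0.000516). The other 5, PLK1, HMMR, DLGAP5, NUSAP1 and ASPM, fell by between 1.70 (PLK1, a kinase of mitotic entry and spindle assembly) and 2.01 (ASPM).

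Of the centriole genes 1 of 2 fell. CEP152, the scaffold that brings PLK4 to the mother centriole, had the most negative change of all 48 genes. It stood at 61.6, 49.1 and 62.6 TPM untreated, 67.6, 43.3 and 47.3 TPM at 0.32 µM, 45.4, 57.2 and 29.2 TPM at 0.63 µM and 5.9, 7.28 and 10.2 TPM at 1.25 µM. The 3 libraries at 1.25 µM lay far below the other 9 of 24 h, while the groups at the lower doses overlapped the untreated one. CEP152 fell by 2.76 (SE 0.25, adjusted p = 5.99e-06). PLK4, the kinase that starts centriole duplication, was low at 8.97, 6.78 and 3.28 TPM untreated and 0.91, 7.05 and 2.04 TPM at 1.25 µM, with overlapping groups, and its change of -0.94 (SE 0.44, adjusted p = 0.188) was not called. Library 2 at 1.25 µM was the high one, and without it the change of PLK4 was -1.52 and passed (adjusted p = 0.0236).

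All 4 subunits of the chromosomal passenger complex, which corrects faulty microtubule attachments and then moves to the central spindle, fell. CDCA8, the subunit borealin, went from 34.6, 66.1 and 32.7 TPM to 15.1, 13.4 and 9.23 TPM and fell by 1.69 (SE 0.24, adjusted p = 0.000305). AURKB, the kinase of the complex, had the least negative change: it stood at 161, 93.4 and 143 TPM untreated and 81.4, 87.5 and 65.2 TPM treated and fell by 0.73 (SE 0.21, adjusted p = 0.031). Treated and untreated libraries did not overlap for either gene, by a small margin for AURKB. INCENP, the scaffold, fell by 1.61 (SE 0.30, adjusted p = 0.00268) and BIRC5 fell by 1.27 (SE 0.32, adjusted p = 0.0174).

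Among checkpoint and cohesion protection genes 4 of 7 fell: BUB1, BUB1B, TTK and SGO2. BUB1B, which encodes the checkpoint effector BubR1, stood at 44.3, 92.2 and 37.7 TPM untreated and 27.1, 16.9 and 13.4 TPM treated, and fell by 1.50 (SE 0.34, adjusted p = 0.01). The other 3 were not called. BUB3, the partner that carries BUB1 and BubR1 to kinetochores, stood at 104, 51.3 and 89.7 TPM untreated and 96, 93.2 and 68.2 TPM treated. The groups overlapped and the change was 0.12 (SE 0.23, adjusted p = 0.81), or -0.18 (adjusted p = 0.63) without untreated library 2, which was the low one. MAD2L1, whose product MAD2 is the diffusible checkpoint inhibitor, stood at 28.8, 26.2 and 41 TPM untreated and 26.2, 25.2 and 19.2 TPM treated, with a change of -0.41 (SE 0.20, adjusted p = 0.212), or -0.23 (adjusted p = 0.539) without untreated library 3. SGO1, the shugoshin that guards centromeric cohesin in mitosis, stood at 12.1, 34.7 and 15.8 TPM untreated and 9.9, 16.8 and 8.08 TPM treated, with overlap and a change of -0.72 (SE 0.33, adjusted p = 0.182). Untreated library 2 was the high one for SGO1, and without it the change was -0.30 (adjusted p = 0.6).

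Of the APC/C partners 3 of 4 fell. CDCA3, an adaptor for ubiquitin-dependent turnover at mitotic entry, went from 59.4, 37.4 and 46.4 TPM to 12, 19.2 and 4.83 TPM and fell by 2.05 (SE 0.35, adjusted p = 0.0015). PTTG1, which encodes securin, the APC/C substrate that holds separase inactive, stood at 506, 527 and 509 TPM untreated, 477, 469 and 467 TPM at 0.63 µM and 262, 262 and 144 TPM at 1.25 µM. Its change was -0.13 (SE 0.19, adjusted p = 0.779) at 0.63 µM, and it fell by 1.25 (SE 0.19, adjusted p = 0.000467) at 1.25 µM. CDC20, the activator of the APC/C in mitosis, fell by 1.00 (SE 0.26, adjusted p = 0.0212). UBE2C, the ubiquitin-conjugating enzyme of the APC/C, was the exception. It stood at 280.2, 110.1 and 337 TPM untreated, 203, 284 and 294 TPM at 0.32 µM, 405, 423 and 289.7 TPM at 0.63 µM and 295, 238 and 236 TPM at 1.25 µM. The 1.25 µM libraries lay within the untreated range, 2 of the 3 libraries at 0.63 µM lay above every other library of 24 h, and the changes were 0.75 (SE 0.31, adjusted p = 0.21) at 0.63 µM and 0.22 (SE 0.31, adjusted p = 0.706) at 1.25 µM. Untreated library 2 was the low one, and without it they were 0.26 (adjusted p = 0.631) and -0.27 (adjusted p = 0.472). With that library left out all 48 changes at 1.25 µM were negative, against 46 of 48 with it.

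Outer kinetochore and corona genes fell in 9 of 10 cases. CENPF, a large corona protein that binds microtubules and dynein regulators, stood at 111, 259 and 93.9 TPM untreated and 46.6, 42.7 and 16.5 TPM treated. The groups did not overlap, and CENPF fell by 2.08 (SE 0.36, adjusted p = 0.00168). In the NDC80 complex, which grips the microtubule end, NDC80 fell by 2.05 (SE 0.35, adjusted p = 0.00137) and its partners NUF2, SPC25 and SPC24 fell by 1.70, 1.97 and 1.45. SKA2 and SKA3, subunits of the SKA complex that helps NDC80 follow shrinking microtubules, also fell, SKA2 by 1.02. ZWINT and KNL1, which link the checkpoint proteins to the outer kinetochore, fell by 1.21 and 1.16. SKA1, the third SKA subunit, was low at 5.6, 4.62 and 5.31 TPM untreated and 3.25, 4.74 and 1.06 TPM treated, and its change of -0.74 (SE 0.39, adjusted p = 0.251) was not called.

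The genes of centromeric chromatin and the inner kinetochore, labelled inner centromere in the figures, held the fewest calls for their number, 2 of 5. CENPA, the histone variant that marks centromeres, went from 16.5, 18.2 and 26.5 TPM to 5.29, 10.7 and 2.96 TPM and fell by 1.66 (SE 0.39, adjusted p = 0.0115). CENPK, a subunit of the constitutive network on CENP-A chromatin, fell by 1.03 (SE 0.29, adjusted p = 0.0321). CENPM stood at 27, 21 and 66.7 TPM untreated and 17.8, 13.5 and 14 TPM treated, a change of -1.12 (SE 0.40, adjusted p = 0.0809). The groups did not overlap, but untreated library 3 was more than the other two together, and the change was -1.45 (adjusted p = 0.0399) without untreated library 2 and -0.64 (adjusted p = 0.29) without library 3. CENPW, a histone-fold subunit, stood at 79.4, 134 and 69.4 TPM untreated and 66.6, 54 and 40.1 TPM treated, without overlap, and had a change of -0.77 (SE 0.28, adjusted p = 0.0901), or -0.49 (adjusted p = 0.312) without untreated library 2. CENPN stood at 42.3, 34.7 and 48.7 TPM untreated and 30.4, 27.2 and 39.5 TPM treated, with overlap and a change of -0.37 (SE 0.25, adjusted p = 0.38), the smallest negative change among the 48.

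All 5 central spindle and cytokinesis genes fell. ANLN, the scaffold anillin that ties actin, myosin and septins into the contractile ring, stood at 99.6, 153 and 84.8 TPM untreated, 131, 103 and 111 TPM at 0.32 µM, 57.3, 58.8 and 38.4 TPM at 0.63 µM and 33.9, 16.6 and 10.6 TPM at 1.25 µM. Each library at 0.63 µM lay below each of the 6 at lower exposure, and each at 1.25 µM below each at 0.63 µM. ANLN fell by 2.51 (SE 0.31, adjusted p = 0.000102) at the top dose. ECT2 had the least negative change of the group: its libraries at 1.25 µM held 24.4, 30.5 and 17.4 TPM, of which 1 lay above the lowest untreated library, and it fell by 0.96 (SE 0.29, adjusted p = 0.0395). Without untreated library 2, its highest, the change of ECT2 was -0.61 (adjusted p = 0.157) and was not called. PRC1 fell by 1.74 (SE 0.18, adjusted p = 2.18e-05), while RACGAP1, the centralspindlin subunit that binds ECT2, and CEP55, which recruits the abscission machinery to the midbody, fell by 1.35 and 0.99.

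Both chromosome genes and both transcription factor genes fell. TOP2A, the topoisomerase that untangles sister chromatids, went from 349, 421 and 382 TPM to 112, 129 and 62.5 TPM and fell by 1.97 (SE 0.22, adjusted p = 3.85e-05). MKI67, whose product Ki-67 coats mitotic chromosomes, went from 116, 139.7 and 76.8 TPM to 47.2, 35.5 and 22.2 TPM and fell by 1.66 (SE 0.31, adjusted p = 0.00304). The groups of both were free of overlap. MYBL2, the B-MYB subunit of the activating MuvB complex, stood at 45.8, 24.9 and 31.2 TPM untreated and 7.52, 11.1 and 3.91 TPM treated and fell by 2.09 (SE 0.35, adjusted p = 0.00123). FOXM1, the forkhead factor of late cell cycle promoters, was low throughout, at 5.91, 2.64 and 2.89 TPM untreated and 1.94, 0.68 and 0 TPM treated, where library 3 is listed at 0. It fell by 1.44 (SE 0.39, adjusted p = 0.0269).

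**Figure D3:**
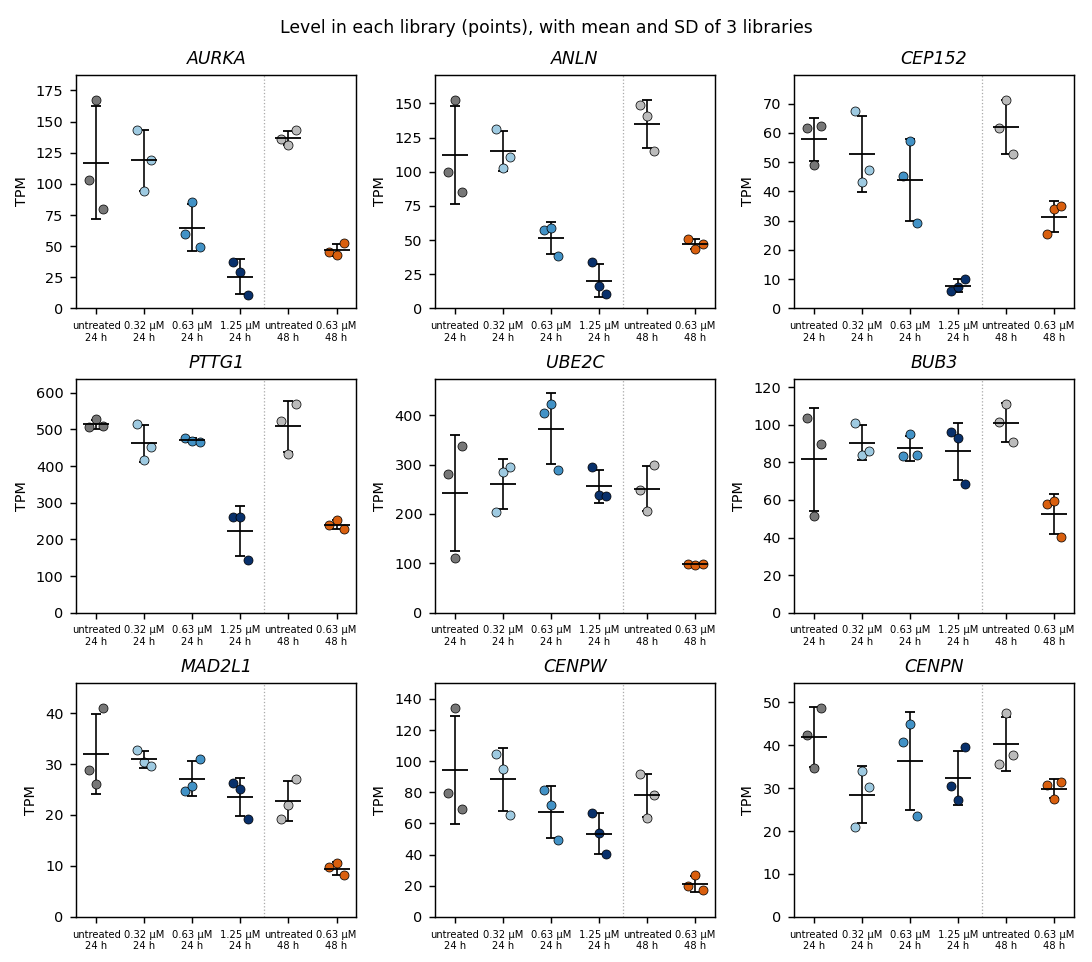
TPM of 9 of the genes in each library (points) over the 6 groups, with the mean and SD of 3 libraries (bars) and separate scales from 0. AURKA, ANLN, CEP152 and PTTG1 are low at 1.25 µM for 24 h and at 0.63 µM for 48 h, less far at 48 h for AURKA, ANLN and CEP152. UBE2C, BUB3, MAD2L1 and CENPW are lowest at 0.63 µM for 48 h, and the CENPN groups overlap at 1.25 µM.

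Between 0.63 and 1.25 µM at 24 h 13 of the 48 genes fell and none rose, beside 1.04% of all genes tested called lower and 0.469% called higher, and the median was -0.84 with 46 of 48 values negative. The 4 most negative were CEP152, which fell by 2.33 (SE 0.25, adjusted p = 0.00028), PLK1, which fell by 1.82 (SE 0.37, adjusted p = 0.0195), CENPF, which fell by 1.76 (SE 0.36, adjusted p = 0.023), and MYBL2, which fell by 1.72 (SE 0.35, adjusted p = 0.0193). PLK1 stood at 79.9, 81.5 and 61.8 TPM untreated, 81.9, 76.1 and 84.5 TPM at 0.63 µM and 35.6, 35.8 and 8.16 TPM at 1.25 µM, so the first 2 of these groups overlapped and the last lay below both. BIRC5 and ECT2, which fell at the middle dose, had changes in this step of 0.10 (SE 0.32, adjusted p = 0.934) and 0.17 (SE 0.29, adjusted p = 0.833), with overlapping groups. In 24 of the 48 genes each of the 3 steps from untreated to 1.25 µM had a negative value. The share of all genes tested that did so was not counted, and adjoining steps share a group, so this count is a description. The count of 13 was 4 without library 1 or library 2 of 0.63 µM or library 3 of 1.25 µM, and 0 in a fit of those 2 groups alone. That last fit called 0 of all genes tested as well. CEP152, PTTG1 and TOP2A were called whichever library was left out.

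At 0.63 µM for 48 h, 36 of the 48 genes fell and none rose, beside 5.68% of all genes tested called lower and 1.95% called higher. All 48 changes were negative, with a median of -1.29 against -0.15 over all genes tested, and 33 of the 36 fell by at least 1 on the log2 scale and 2 by at least 2. Every treated library lay below every untreated one for 47 of the 48 genes, beside 21.3% of all genes tested, and SKA1 was the gene that overlapped. Scaling by median-of-ratios or quantiles moved the all-gene median at 48 h from -0.15 to 0.00 and the share of higher calls over all genes from 25.5% to 49.2% and 47.5%. With these scalings 28 and 30 of the 48 genes were called, all lower. The count was 22 without untreated library 1 or 2, 23 without treated library 3, and 36 in a fit of the compared groups alone. Whichever library was left out, 18 were called: TPX2, NUSAP1, ASPM, AURKB, CDCA8, MAD2L1, SGO2, PTTG1, CDCA3, SPC24, SPC25, SKA2, CENPW, PRC1, ANLN, MKI67, TOP2A and MYBL2.

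MYBL2 had the most negative change at 48 h. It stood at 40.3, 38.1 and 28 TPM untreated and 7, 7.2 and 3.31 TPM at 0.63 µM, with no overlap, and fell by 2.46 (SE 0.35, adjusted p = 0.000414). In the NDC80 complex SPC25 went from 10.5, 12.9 and 14.8 TPM to 2.68, 1.92 and 1.81 TPM and fell by 2.13 (SE 0.41, adjusted p = 0.00438), and SPC24 went from 14.2, 20.0 and 15.7 TPM to 4.74, 4.12 and 2.05 TPM and fell by 1.96 (SE 0.32, adjusted p = 0.00131). These are the short subunits that dock the complex on the inner kinetochore. CENPM was the fourth, at 36.1, 24.5 and 36 TPM untreated and 12.1, 10.4 and 4.05 TPM treated, and fell by 1.84 (SE 0.40, adjusted p = 0.00866). By role, the 36 calls comprised 6 of 7 spindle genes, 1 of 2 centriole genes, 4 of 4 passenger complex genes and 4 of 7 checkpoint genes. They also comprised 4 of 4 APC/C partners, 8 of 10 outer kinetochore genes and 2 of 5 inner kinetochore genes. The rest were 3 of 5 cytokinesis genes and both genes each of the chromosome and factor groups.

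Called at 48 h and not at 1.25 µM for 24 h were 5 genes: BUB3, MAD2L1, UBE2C, CENPM and CENPW. UBE2C stood at 248, 207 and 299 TPM untreated and 98.7, 95.7 and 99.5 TPM at 0.63 µM for 48 h, so the treated libraries were close together and all under the untreated ones, and it fell by 1.33 (SE 0.31, adjusted p = 0.0129). BUB3 went from 102, 111 and 90.7 TPM to 58, 59.3 and 40.1 TPM and fell by 0.95 (SE 0.23, adjusted p = 0.0177). MAD2L1 went from 19.1, 22 and 27 TPM to 9.79, 10.5 and 8.12 TPM and fell by 1.17 (SE 0.20, adjusted p = 0.00186). CENPW went from 91.8, 63.6 and 78.6 TPM to 19.6, 26.7 and 17.1 TPM and fell by 1.84 (SE 0.28, adjusted p = 0.000746). Called at 1.25 µM for 24 h and not at 48 h were 8 genes, DLGAP5, BUB1B, TTK, KNL1, CENPA, CENPK, RACGAP1 and CEP55. Their changes at 48 h ran from -0.79 (CENPK) to -1.36 (DLGAP5). PLK4, SGO1, SKA1 and CENPN were called in neither.

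**Figure D4:**
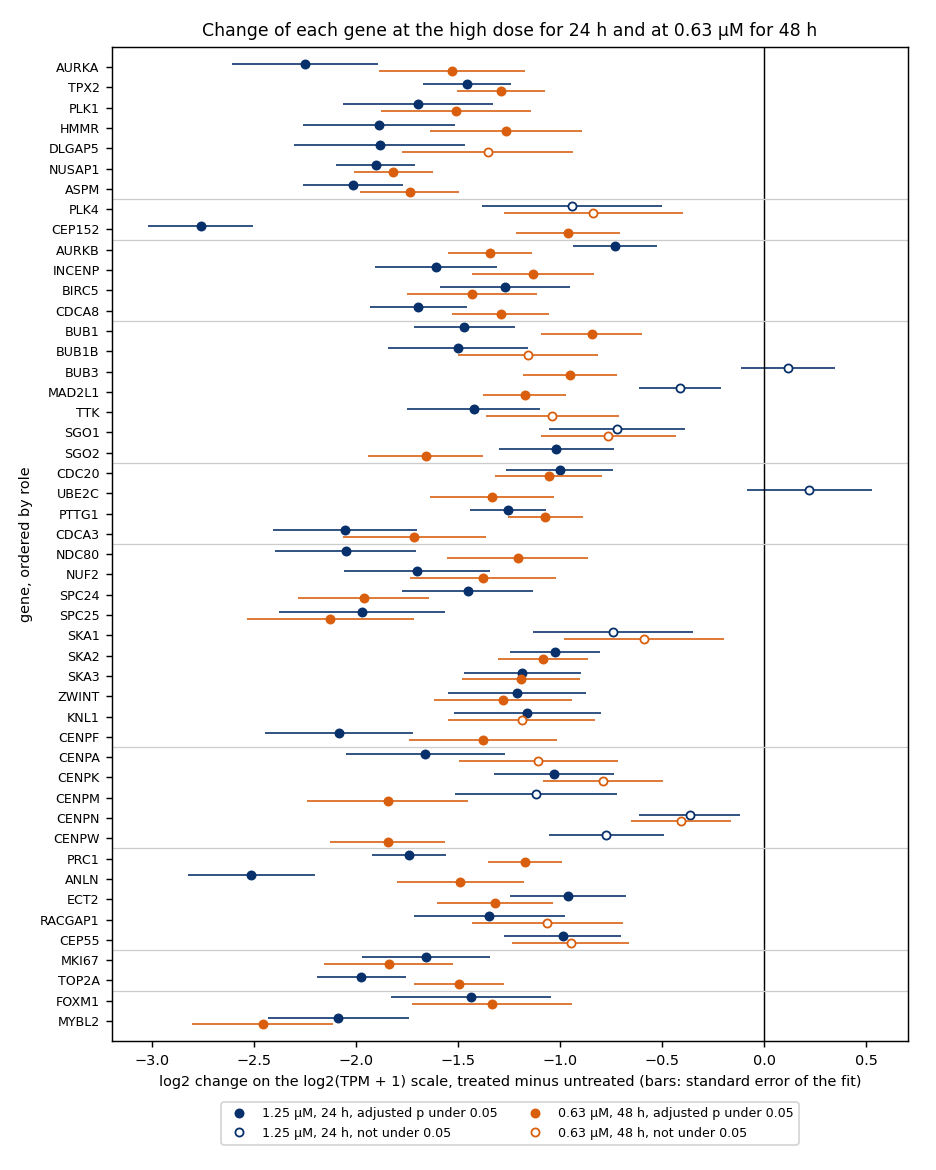
Log2 change of each of the 48 genes from untreated cells of the same time (x axis, with the standard error of the fit as bars) at 1.25 µM for 24 h (blue) and at 0.63 µM for 48 h (orange), filled where the adjusted p was under 0.05. All points but UBE2C and BUB3 at 1.25 µM lie left of 0, and CEP152 is the point farthest left, at -2.76.

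Whether these differences between exposures pass a test of their own was asked directly, in a comparison added after the values were seen. The change at 1.25 µM for 24 h minus that at 0.63 µM for 48 h had no call among the 48 genes, beside 0.0067% of all genes tested called in either direction. An unadjusted p under 0.05 was found for 7 of the 48 and for 1629 of the 14936 genes tested. CEP152 had the most negative difference, -1.80 (SE 0.36, adjusted p = 0.147), and UBE2C the most positive, 1.56 (SE 0.43, adjusted p = 0.216). For BUB3 the difference was 1.07 (SE 0.33, adjusted p = 0.259) and for CENPW 1.07 (SE 0.40, adjusted p = 0.352). The 2 comparisons share no library. Across the 48 genes their changes had a Pearson r of 0.407 and a Spearman rho of 0.46. Over the 45 genes other than CEP152, UBE2C and BUB3, r was 0.52. The genes left out have large differences between the comparisons (-1.80, 1.56 and 1.07). Leaving such genes out raises r by itself, so the value of 0.52 does not show closer agreement. The points share libraries within each comparison, so these correlations are a description. The rank correlation of the untreated level with the change was weak, at -0.121 for 1.25 µM at 24 h and -0.209 for 48 h.

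At the one dose given for both times, 0.63 µM, the change at 48 h was more negative than at 24 h for all 48 genes, or for 45 without untreated 24 h library 3, where BUB1, BUB1B and ECT2 were the exceptions. The median difference was -0.77 (all genes tested, -0.17). An unadjusted p under 0.05 was found for 17 of the 48 and for 1784 of the 14936 genes tested. None of the 48 passed the adjusted threshold, beside 0.0335% of all genes tested called in either direction. MYBL2 had the most negative difference, -2.09 (SE 0.49, adjusted p = 0.113). UBE2C followed with -2.08 (SE 0.43, adjusted p = 0.0876), and AURKB had -1.38 (SE 0.29, adjusted p = 0.0935). The UBE2C difference was -1.59 (adjusted p = 0.0447) without untreated 24 h library 2, -2.39 (adjusted p = 0.0414) without library 3 and -1.72 (adjusted p = 0.107) without both. Untreated cells gave no call among the 48 between 48 and 24 h, beside 0.0134% of all genes tested called in either direction. The median was -0.06, with 29 negative values. At an unadjusted p under 0.05 there was 1 of the 48, MAD2L1, beside 1181 of the 14936 genes tested.

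Other genes of the same pathways, 85 in a separate list of which 84 were tested, were read in the same fit. At 1.25 µM for 24 h 29 of the 84 fell and 3 rose with a median of -0.58, beside 6.36% and 4.94% of all genes tested, and at 0.63 µM for 48 h 25 fell and none rose with a median of -0.60, beside 5.68% and 1.95%. At 0.63 µM for 24 h 1 fell, SPDL1 (-0.61), and 1 rose, ANAPC11 (0.79), which is no result about the list, since 0.824% and 1.36% of all genes tested were called. At 0.32 µM none was called. Condensin, which compacts mitotic chromosomes, had 6 of 8 genes fall at 1.25 µM and 4 of 8 at 48 h, with NCAPH falling by 1.99 and 2.02. Among cytokinesis genes 7 of 14 fell and 1 rose (VPS4A, 0.85) at 1.25 µM. The falls included the kinesins KIF20A (-2.47), KIF23 (-2.14) and KIF14 (-1.95), and 6 of 14 fell at 48 h. Of the other centromere genes 6 of 13 fell at 1.25 µM, HJURP, the CENP-A chaperone, by 1.52, and 4 of 13 at 48 h. Of the Mis12 and RZZ genes, which sit between centromere and NDC80 or on the corona, 2 of 8 and 4 of 8 fell, among them SPDL1 by 1.74 and 1.61.

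Cohesin and separase genes fell in 4 of 10 cases at each of these exposures, with the cohesin ring subunit SMC1A falling by 1.66 and 0.86. Of the APC/C subunits and inhibitors at 1.25 µM 2 of 14 fell, the inhibitor FBXO5 by 1.46 and ANAPC7 by 1.05, and 2 rose, ANAPC11 by 0.65 and CDC26 by 1.17. Of all genes tested 6.36% were called lower at that exposure and 4.94% higher. CDC26, a small APC/C subunit, stood at 26.9, 20.0 and 34.4 TPM untreated and 60.6, 71.6 and 52.2 TPM at 1.25 µM, without overlap. At 48 h 1 of the 14 fell, FBXO5 by 1.65, and none rose, beside 5.68% and 1.95% of all genes tested, so the count for this set is near that of all genes. None of 5 further checkpoint regulators was called at either exposure. A list of 12 genes held DREAM and MuvB, the complex that controls many of these promoters, and the separate transcription factor NF-Y. Of the 12, 2 fell at each exposure, beside 6.36% and 5.68% of all genes tested. They were the histone-binding subunit RBBP4, by 1.37 and 1.40, and the E2F partner TFDP1, by 0.87 and 1.04. The median of the 12 was 0.07 at 1.25 µM, with 5 changes negative, and -0.56 at 48 h, with 9 negative.

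The promoters of these genes are shown because most of the genes fell at the same exposures and shared promoter motifs are known for the family. RefSeq promoters on GRCh38.p14, 250 bases before to 50 after a start, were matched by symbol for 38 of the 48 genes, in 45 entries. The genes without an entry were AURKA, UBE2C, BUB3, FOXM1, RACGAP1, CENPM, BIRC5, TTK, TPX2 and KNL1. The motifs searched, on both strands, were the cell cycle genes homology region (CHR), taken as TTTGAA or TTCGAA and bound by MuvB, and the CCAAT box, bound by NF-Y. The CHR letters were in 73.3% of the 45 entries, against 16.4% of all 35116 promoters of the same length. Within 50 bases either side of the start they were in 62.2%, against 5.01%. CCAAT was in 77.8% against 34.6%, at 2 or more places in 51.1% against 10.8%, and both motifs were in 55.6% against 6.38%. At 1.25 µM the median change was -1.66 in the 31 genes with a CHR match and -1.03 in the 7 without, and -1.47 in the 31 with CCAAT and -1.70 in the 7 without. A match is a description of letters, not a bound site.

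The promoters of CEP152, ANLN, MYBL2, CENPF and CENPN are printed 5′ to 3′ on the gene's strand. CHR matches (TTTGAA, or TTCAAA where it reads on the other strand) and CCAAT matches (or ATTGG) are in capitals. CEP152, ANLN and MYBL2 are the genes with an entry and the most negative changes at 1.25 µM. CENPF was added after its values were seen. It had the most negative change among genes picked for a CHR match and at least 4 CCAAT matches, so its motifs were fixed by the choice. CENPN is the gene with an entry that changed least. In this order the promoters lie at chr15:48811020-48811319 on the minus strand, chr7:36389612-36389911, chr20:43666864-43667163, chr1:214602945-214603244 and chr16:81006964-81007263 on the plus strand.
CEP152: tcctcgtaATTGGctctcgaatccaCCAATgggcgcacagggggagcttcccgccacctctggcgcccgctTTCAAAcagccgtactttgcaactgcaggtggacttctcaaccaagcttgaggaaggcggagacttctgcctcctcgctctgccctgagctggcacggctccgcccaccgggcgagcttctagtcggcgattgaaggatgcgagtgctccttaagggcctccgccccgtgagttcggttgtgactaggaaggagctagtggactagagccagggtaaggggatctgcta
ANLN: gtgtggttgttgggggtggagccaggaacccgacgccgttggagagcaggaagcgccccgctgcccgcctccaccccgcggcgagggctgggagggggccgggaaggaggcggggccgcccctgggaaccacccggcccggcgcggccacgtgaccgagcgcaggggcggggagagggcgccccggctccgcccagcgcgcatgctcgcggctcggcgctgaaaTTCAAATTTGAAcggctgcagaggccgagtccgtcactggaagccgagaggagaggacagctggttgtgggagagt
MYBL2: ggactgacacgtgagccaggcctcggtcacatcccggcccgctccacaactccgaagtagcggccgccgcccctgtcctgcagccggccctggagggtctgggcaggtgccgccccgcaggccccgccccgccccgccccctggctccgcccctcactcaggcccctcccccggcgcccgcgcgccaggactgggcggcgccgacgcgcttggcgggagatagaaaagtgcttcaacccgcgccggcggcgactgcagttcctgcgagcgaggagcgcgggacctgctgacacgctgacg
CENPF: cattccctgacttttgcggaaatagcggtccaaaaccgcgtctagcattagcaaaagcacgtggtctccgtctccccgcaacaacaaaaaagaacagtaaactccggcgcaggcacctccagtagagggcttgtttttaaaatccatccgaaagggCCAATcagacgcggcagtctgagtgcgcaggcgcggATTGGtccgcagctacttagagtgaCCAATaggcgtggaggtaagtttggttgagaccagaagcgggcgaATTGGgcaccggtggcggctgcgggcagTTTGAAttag
CENPN: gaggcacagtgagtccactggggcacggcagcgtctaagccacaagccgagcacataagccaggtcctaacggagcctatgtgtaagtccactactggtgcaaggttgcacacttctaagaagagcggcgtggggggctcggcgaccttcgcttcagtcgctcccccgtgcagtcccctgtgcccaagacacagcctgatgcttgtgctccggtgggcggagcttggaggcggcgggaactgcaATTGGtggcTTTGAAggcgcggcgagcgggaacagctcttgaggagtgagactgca
CEP152, which fell by 2.76, had 1 CHR match, 179 bases before the start, and 2 CCAAT matches. ANLN, which fell by 2.51, had 2 adjoining CHR matches 26 and 20 bases before the start and no CCAAT. MYBL2, which fell by 2.09, had neither motif in this window. CENPF, chosen for holding both motifs, had 4 CCAAT matches and 1 CHR match 41 bases after the start. CENPN, which was not called, had a CHR match at base 4 and a CCAAT match 6 bases before the start, so the letters were present in genes that fell and in a gene that was not called.

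The annotation (GENCODE release 29, GRCh38) limits how firmly some levels can be read, since no source used here says whether reads were counted by strand. The 3' end of FOXM1 lies within ITFG2 on the opposite strand (mean 37.0 TPM). CENPN overlaps the same-strand AC092718.4 (mean 40.6 TPM). SKA2 has a processed pseudogene, SKA2P1 (mean 3.55 TPM), and UBE2C has UBE2CP5 (mean 1.21 TPM), so part of their reads could have been split.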

How the data were processed

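The authors deposited 1 table of TPM per Ensembl gene for 18 libraries made with a QuantSeq 3' mRNA-Seq FWD kit, per the labels' protocols. The submitters' processing notes list RSEM 1.3.1, DESeq2, cutadapt 1.18 and STAR 2.7 without their roles; the genome build is not given in the sources used here. TPM keeps no read counts, so no count test was run, and 3' end reads divided by transcript length make levels of different genes comparable only loosely.

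The 48 genes, the pathway lists and the tests were chosen with earlier results of these data known. The 14936 genes that reached 1 TPM in 3 or more libraries entered limma 3.58.1 in R 4.3.3 on log2(TPM + 1), with 1 mean per group, a variance trend, two-sided tests and Benjamini-Hochberg adjustment over all of them. Per role group the most and least negative change at 1.25 µM was given in full, as was every gene not called there. The 5 called genes at 0.63 µM for 24 h and up to 4 of the largest for the other comparisons were also named. The procedure was tested on simulated data. Alternatives were other pseudocounts, filters and scalings, a replicate block, only the compared groups, and leaving out each library. The alternative without untreated 24 h libraries 2 and 3 and the test between 1.25 µM at 24 h and 0.63 µM at 48 h were added after the data were seen. Promoter motifs were matched in the RefSeq table of GRCh38.p14.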

Additional observations from a re-analysis of the deposited data

How the results depend on the processing

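Of 93 calls among the 48 genes, followed through 1344 values under the alternatives, 1056 stayed on their side of the threshold, 288 kept their direction but no longer passed it, and none changed direction. No gene of the 48 was called higher under any alternative. The change of UBE2C at 1.25 µM turned from 0.22 to -0.27 without untreated 24 h library 2 and to -0.14 without libraries 2 and 3, with a range over single left-out libraries of -0.27 to 0.53. That of BUB3 turned from 0.12 to -0.18 and -0.29, with a range of -0.18 to 0.32. Called genes at 0.63 µM for 24 h (5) became 3 with a pseudocount of 0.1 TPM, 1 with no filter, 0 without untreated libraries 2 and 3, 0 with only the compared groups, and 0 to 6 with 1 library left out. At 1.25 µM (39) they became 16 and 4 under the last 2 of these fits and 25 to 37 with 1 library left out. At 48 h (36) they were 22 to 33 with 1 library left out. From 0.63 to 1.25 µM (13) they became 8 with no filter, 0 with only the compared groups and 4 to 15 with 1 library left out. From 0.32 to 0.63 µM (0) they became 1 with median-of-ratios scaling, 1 with quantile normalization and 0 to 1 with 1 library left out. The time difference at 0.63 µM (0) gave 0 to 1 with 1 library left out. Scaling moved the share of higher calls over all genes from 31% to 42.1% (quantile, 0.63 to 1.25 µM) and from 40% to 66.7% (time difference, 5 and 3 genes). The cause of these shifts was not tested, beyond the fewer libraries or genes that some fits hold. Where only 1 untreated library is left, it is assumed to vary like the other groups. With the replicate number as a block the counts were 9 at 0.63 µM and 2 from 0.32 to 0.63 µM, and CENPW at 1.25 µM passed (-0.77, adjusted p = 0.0372). The numbers were not taken to pair the samples, since the labels number the replicates without stating a pairing. Of 45 same-number pairs 1 had a correlation over 0.1 (-0.0927 to 0.115). Different-number pairs ran from -0.114 to 0.108, so this cutoff cannot decide the question. A library did correlate best with its own number in another group in 58 of 90 cases, where 1 in 3 would without any pairing. That is a hint of pairing from the data, which the labels do not settle. Depth is unknown, so counting error could not be given.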
